A study of Mus musculus with 34 samples.

Results

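The Iroquois homeobox genes Irx1 to Irx6 are described here by the methylation of their CpG islands. Members were all array probes that carry one of these gene names in the scanner files. They were grouped into islands by joining probes with gaps of at most 500 bases, and an island was scored when at least 3 of its probes were read. Of the 97159 probes with a position, 141 carry an Irx name, and 14 of the 13615 scored islands belong to the family. Irx1, Irx2 and Irx4 form the IrxA cluster on chromosome 13, with 9 islands. Irx3, Irx5 and Irx6 form the IrxB cluster on chromosome 8, with 5 islands.

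The study asked whether embryonic stem (ES) cells in culture, and the cells made from them, carry CpG island methylation that tissues of the mouse lack. DNA fragments bound by an antibody against methylated cytosine were labelled with Cy5, the input DNA with Cy3, and both were hybridised to 34 CpG island arrays. The mouse DNA came from C57Bl/6 animals by the methods, with no strain given for the cell lines. Adult tissue comprised 16 arrays of animals aged 3 months, 2 each of colon, pancreas, brain, kidney, liver, lung, muscle and spleen, of which 9 were from males and 7 from females.

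The 5 embryo arrays were of embryos at 8.5, 9.5, 10.5, 11.5 and 12.5 days, of which the last was female and the other 4 male. Undifferentiated ES cells were 1 array each of the lines EB5, J1 and TT2. Differentiated ES cells were 5 arrays. Embryoid bodies were aggregates of TT2 cells grown without the factor that keeps them undifferentiated. A second TT2 culture had been treated with retinoic acid, which drives cells towards neuroectoderm. Endoderm, with 2 arrays, and mesoderm, with 1, were sorted from Activin-treated cells of an EB5-derived reporter line. Teratomas, with 2 arrays, were tumours grown under the skin of immunodeficient mice from J1 cells by the labels. The methods name other lines for the teratomas and J1 for the retinoic acid culture, while a figure legend of the study, like the label, gives TT2 for the latter. The parent lines given here are those of the labels. The remaining 3 arrays were β cells sorted from islets of Pdx1-GFP mice aged 2 to 8 months, the β-cell tumour line Min6 and the α-cell line aTC.

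Iroquois genes encode homeodomain transcription factors of the TALE class, which act in patterning of the embryo. The mouse genome holds them as a pair of clusters that arose by duplication, so that each gene of IrxA has a counterpart in IrxB. Irx4 is best known as a gene of the ventricular myocardium, Irx3 and Irx5 act in the heart and limb buds, Irx5 and Irx6 in bipolar cells of the retina, and Irx1 and Irx2 are expressed in the developing lung and in pancreatic α cells.

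Methylation of a promoter is read at its CpG sites. The 250 bases upstream of the gene start are given for the 3 members whose promoters were in the RefSeq table of GRCm38.p6, to show how unevenly the sites that can be methylated lie within each. Each is written 5′ to 3′ on the strand of its gene, with every CpG in capitals.
Irx2: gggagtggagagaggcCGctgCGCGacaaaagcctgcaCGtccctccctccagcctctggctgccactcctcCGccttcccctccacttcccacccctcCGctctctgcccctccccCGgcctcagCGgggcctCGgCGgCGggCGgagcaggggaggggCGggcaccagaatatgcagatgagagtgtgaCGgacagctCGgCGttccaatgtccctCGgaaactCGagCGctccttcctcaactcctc
Irx3: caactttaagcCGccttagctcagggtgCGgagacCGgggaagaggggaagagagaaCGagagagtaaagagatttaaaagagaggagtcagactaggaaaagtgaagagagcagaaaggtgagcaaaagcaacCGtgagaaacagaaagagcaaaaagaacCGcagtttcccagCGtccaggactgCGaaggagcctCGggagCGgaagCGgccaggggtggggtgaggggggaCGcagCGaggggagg
Irx4: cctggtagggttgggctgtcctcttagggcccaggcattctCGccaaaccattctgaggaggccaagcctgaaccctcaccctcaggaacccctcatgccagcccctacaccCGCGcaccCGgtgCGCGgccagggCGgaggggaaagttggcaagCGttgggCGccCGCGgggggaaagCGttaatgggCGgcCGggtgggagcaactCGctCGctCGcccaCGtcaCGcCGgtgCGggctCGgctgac
The Irx2 promoter is chr13:72628570-72628819 on the plus strand and holds 19 CpG sites, a number reached by 19.7% of 32851 mouse promoters of this length. The Irx3 promoter is chr8:91801655-91801904 on the minus strand and holds 13, which 31.5% of promoters reach. The Irx4 promoter is chr13:73260247-73260496 on the plus strand and holds 22, which 14.8% reach. Over all promoters the median is 6, so these 3 are richer in CpG than the median. In the Irx4 promoter the sites crowd into the stretch nearest the start. Irx1, Irx5 and Irx6 are named only. The build of the array positions is not given in the sources used here, so positions below are those of the scanner files and are not converted.

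Each probe value is a Z-score of the log ratio of bound over input within its array, and an island's score is the mean over its probes. A score of 0 is the mean probe of the array, and a higher score means more methylated DNA bound. The antibody enriches DNA by its number of methylated CpG sites, so scores of different islands cannot be compared directly. The text compares arrays within an island, and mean scores of clusters are to be read across arrays, since the clusters hold different probes. The study takes a score above 0.75, on its own scale, as methylated.

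The probes cover the 6 genes unevenly. Irx5 has 45 probes, Irx2 32, Irx4 21, Irx3 20, Irx1 19 and Irx6 4. Each gene has an island over or at its start, the largest being that of Irx5 with 41 probes at -2164 to 3082 bases from the start. Irx4 has 4 further islands, at 2209, 3522, 7674 and 11005 bases after the start, each with 3 or 4 probes. These are named inside 1, inside 2, inside 3 and downstream here, and the last lies at 73737783 to 73738264 on chromosome 13. Irx3 has an island of 4 probes 3292 bases after its start and Irx5 one of 4 probes 7746 bases after its start, both past the end of the gene by the array's annotation. Irx1 has an island of 6 probes inside the gene, and Irx2 has one of 4 probes at -4926 to -4526 bases from its start. A pair of Irx3 probes at -4265 and -4134 bases was too small to be scored.

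The median score of each start island over the adult arrays was below 0. Irx3 start ranged from -0.62 to -0.27 over the 16 adult arrays with a median of -0.37. Irx5 start ranged from -0.58 to -0.01 with a median of -0.41. The Irx6 start island, 4 probes just inside the gene, ranged from -0.74 to -0.12 with a median of -0.38. None of these 3 IrxB starts rose above 0 on any adult array, any of the 5 embryo arrays, either teratoma or the β-cell array. In IrxA, Irx1 start ranged from -0.61 to 0.09 in adult tissue with a median of -0.38, Irx2 start from -0.42 to 1.05 with a median of -0.14, and Irx4 start from -0.66 to 0.17 with a median of -0.21. The highest Irx1 and Irx2 values were both on a colon array. Arrays of the smaller layout lack some probes of every start island but that of Irx6, such as the Irx4 probe at -88 bases, which averaged 0.89 in adult tissue, so these ranges also hold differences between probe sets. With the layout as a block, the same Irx islands were called between differentiated ES cells and adult tissue.

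**Figure D1:**
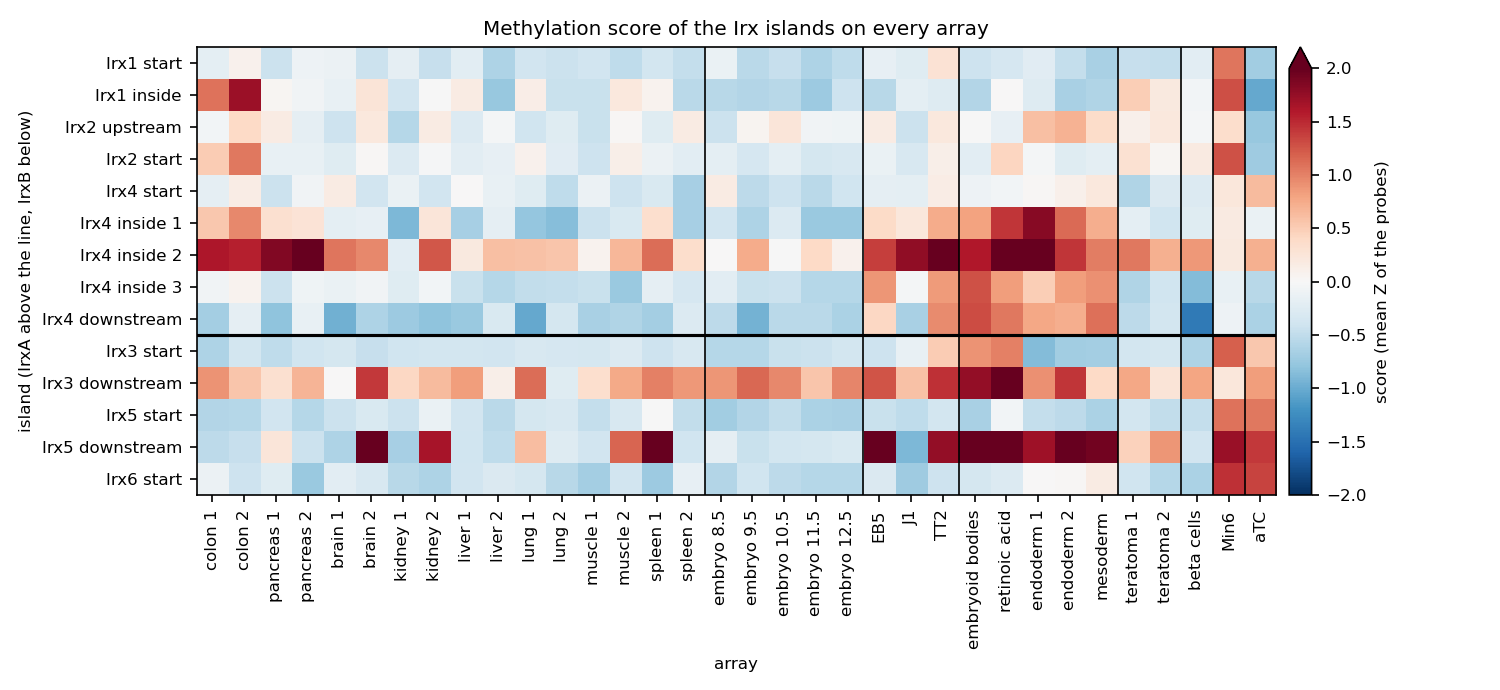
Score of each Irx island (mean Z of its probes, colour scale from -2 to 2 with higher values in the darkest red) on each of the 34 arrays, with groups split by vertical lines. Irx4 inside 3 and Irx4 downstream are red on all 5 differentiated ES arrays and blue or pale on the embryo, teratoma and adult arrays, while most start islands are blue outside Min6 and aTC.

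In the 3′ part of Irx4 every differentiated ES array scored above every adult and embryo array. Irx4 downstream scored 1.30 in embryoid bodies, 1.05 after retinoic acid, 0.77 and 0.73 in the endoderm arrays and 1.09 in mesoderm. Adult arrays ran from -1.02 in lung 1 to -0.14 in pancreas 2, with a median of -0.66. Embryos scored -0.53 at 8.5 days, -0.95 at 9.5, -0.54 at 10.5, -0.54 at 11.5 and -0.64 at 12.5. All 5 differentiated arrays lay above all 16 adult and all 5 embryo arrays. Among undifferentiated lines, TT2 scored 0.95 and EB5 0.42, both above every adult array, while J1 at -0.65 lay among them. All J1 scores here are from its scanner ratios. These correlate with the authors' deposited J1 scores at a Pearson r of only 0.113, and which of the pair is J1 was not settled. The teratomas, at -0.52 and -0.37, also lay within the adult range.

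Irx4 inside 3, the next island towards the start, separated the same arrays. It scored 1.27 in embryoid bodies, 0.83 after retinoic acid, 0.50 and 0.84 in endoderm and 0.91 in mesoderm. Adult values went from -0.74 in muscle 2 to 0.06 in colon 2 with a median of -0.29, and embryo values were -0.22, -0.44, -0.42, -0.56 and -0.57 in order of age. Differentiated arrays again lay above every adult and embryo array. Of the undifferentiated lines, EB5 at 0.88 and TT2 at 0.85 were as high as the differentiated cells and J1 at -0.04 was within the adult range. Teratomas scored -0.60 and -0.40.

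Differences at these islands were tested with limma on all 13615 islands, with p-values adjusted over all of them. Differentiated ES cells exceeded adult tissue at Irx4 downstream by 1.58 ± 0.16 (SE), higher in 5 of 5 arrays, at an adjusted p of 3.72e-08. The difference at Irx4 inside 3 was 1.16 ± 0.13, also in 5 of 5 arrays, at an adjusted p of 1.42e-07. These 5 arrays come only from the lines TT2 and EB5, and the fit took them as independent, with no term for the line. Against embryos the differences were 1.63 (adjusted p 1.61e-06) and 1.31 (adjusted p 1.57e-06), and these comparisons share the differentiated arrays. With the slide as a block, Irx4 inside 3 was not called against embryos (adjusted p 0.0588) and Irx4 downstream was (adjusted p 0.0393). No slide held both a differentiated and an embryo array, so this block links them only through adult and undifferentiated ES arrays. Only the embryo at 8.5 days shared a slide with an array of another group in the fit. Both islands remained called against adult tissue in every alternative that scored them, and the slide and scan day were among these. With the slide as a block the adjusted p was 0.000529 for Irx4 downstream and 0.000159 for Irx4 inside 3.

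Pairs of arrays on the same slide can be read without a model. On the slide that held both, embryoid bodies exceeded brain 2 by 1.92 at Irx4 downstream and by 1.33 at Irx4 inside 3. On another, endoderm 2 exceeded pancreas 1 by 1.53 and 1.27. Undifferentiated TT2 exceeded the embryo at 8.5 days on its slide by 1.48 and 1.07, and EB5 exceeded pancreas 2 by 0.56 and 0.96. All 4 pairs of these islands had the sign of the group difference.

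The middle of Irx4 was more varied. Irx4 inside 1 scored 0.81 in embryoid bodies, 1.44 after retinoic acid, 1.81 and 1.14 in endoderm and 0.73 in mesoderm. Adult arrays ranged from -0.89 in kidney 1 to 0.96 in colon 2 with a median of -0.19, and embryos scored -0.38, -0.62, -0.27, -0.75 and -0.74 in order of age. The differentiated arrays thus cleared all embryos but overlapped with colon. The difference from adult tissue was 1.34 ± 0.23 (adjusted p 6.93e-05) and that from embryos 1.74 (adjusted p 6.94e-05). With the slide as a block the difference from adult tissue was 0.90 (adjusted p 0.134) and with the scan day 0.93 (adjusted p 0.0528), so the call did not hold in either. The call against embryos did not hold in either of these too.

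Irx4 inside 2 ranged in adult tissue from -0.21 in kidney 1 to 2.64 in pancreas 2 with a median of 0.81. Embryos were lower, at 0.0034, 0.74, -0.015, 0.40 and 0.09 in order of age. Differentiated arrays scored 1.60, 2.60, 2.12, 1.43 and 1.03, in the order embryoid bodies, retinoic acid, endoderm 1, endoderm 2 and mesoderm. They lay above every embryo array, with a difference of 1.51 (adjusted p 0.00538), but within the adult range, with a difference from adult tissue of 0.83 (adjusted p 0.0533) that was not called. It was called after normexp (adjusted p 0.0345), with probe medians (adjusted p 0.0169), when gaps up to 1000 bases joined it to inside 1 (adjusted p 0.00121) and without mesoderm (adjusted p 0.0341), while with the slide as a block the difference was 0.10 (adjusted p 0.921). The call of Irx4 inside 2 against embryos did not hold with the slide or the scan day as a block. The Irx4 start island, which holds the start of the gene, differed by 0.26 from adult tissue (adjusted p 0.0995) and by 0.38 from embryos (adjusted p 0.0559), neither called. It was called against adult tissue with slides as random blocks (adjusted p 0.0403) and against embryos without the embryo at 8.5 days (adjusted p 0.00855).

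**Figure D2:**
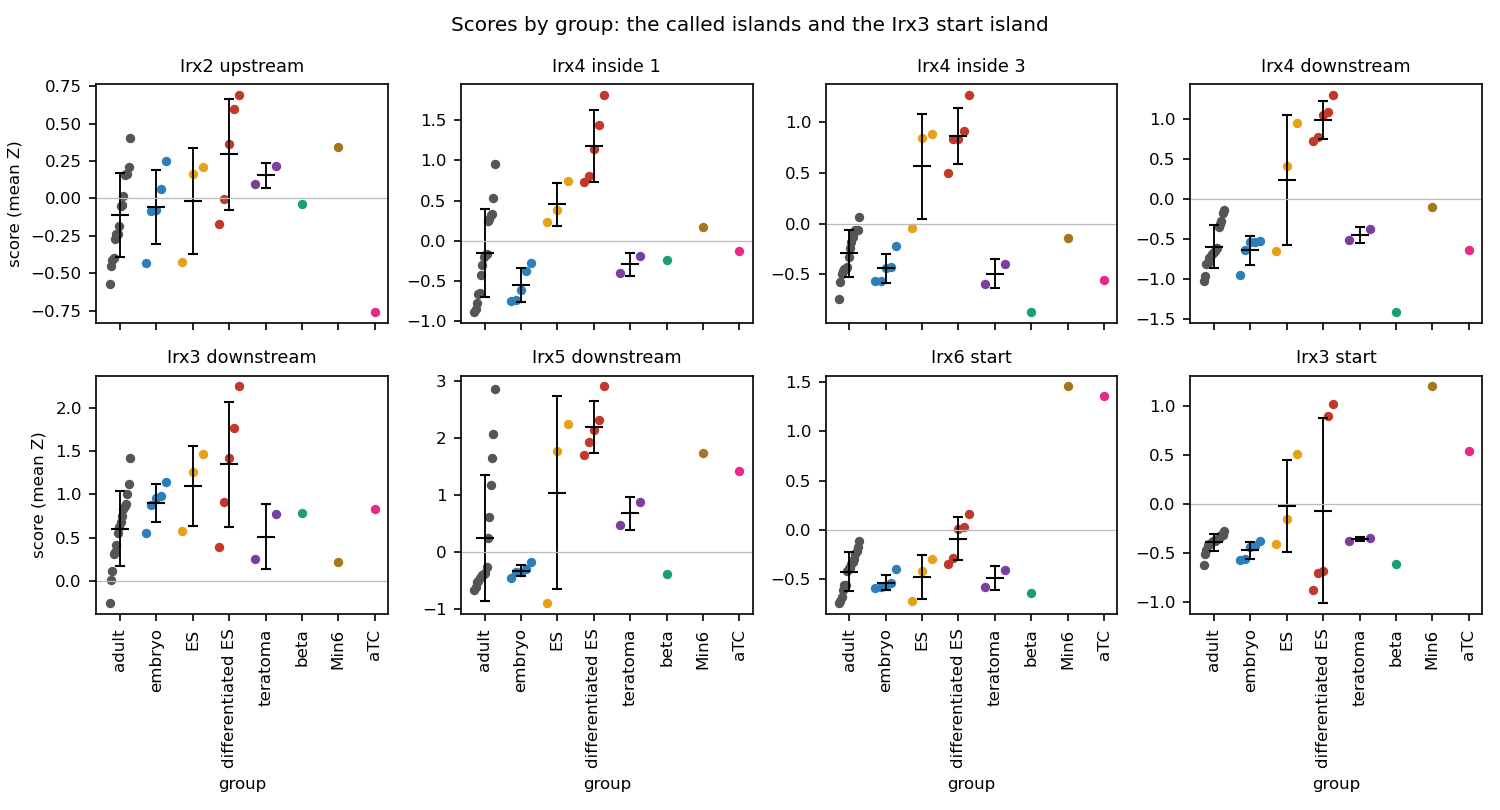
Score (mean Z) of each array by group for the 7 islands called between differentiated ES cells and adult tissue and for Irx3 start, with the mean and SD in black where a group has more than 1 array. Differentiated ES arrays lie above all adult arrays at Irx4 inside 3 and Irx4 downstream, and Irx3 start splits them into a high pair and 3 low arrays.

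Irx5 downstream was high in every differentiated culture, at 2.32 in embryoid bodies, 2.90 after retinoic acid, 1.70 and 2.14 in endoderm and 1.93 in mesoderm. EB5 scored 2.24, TT2 1.76 and J1 -0.90. Embryos scored -0.19, -0.45, -0.36, -0.36 and -0.30 in order of age. EB5, TT2 and every differentiated array were thus high, and J1 and all embryos were below 0. Against embryos the difference was 2.53 (adjusted p 0.00269), with no overlap. Teratomas lay between, at 0.47 and 0.88. With the slide or the scan day as a block, Irx5 downstream was not called against embryos.

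Adult tissue was uneven at Irx5 downstream, with a median of -0.39 and a range from -0.66 to 2.86. Brain scored -0.62 and 2.86 on its 2 arrays, kidney -0.66 and 1.65, and muscle -0.38 and 1.16. Spleen scored 2.06 and -0.40, lung 0.62 and -0.26, and pancreas 0.24 and -0.44, while both colon and both liver arrays lay between -0.52 and -0.40. Arrays of the same tissue thus fell at opposite ends of the range, by as much as 3.48 in brain. Differentiated ES cells exceeded adult tissue by 1.95 ± 0.48 (adjusted p 0.00317), higher than the adult mean in 5 of 5 arrays but above all adult arrays in only 1.

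This difference was not stable to the slide. Blocking by slide gave 0.68 (adjusted p 0.646), which is the mean of the only 2 slides that hold a differentiated and an adult array. There, endoderm 2 exceeded pancreas 1 by 1.89, and embryoid bodies scored below brain 2, with a difference of -0.54. With the scan day as a block the difference was 1.33 (adjusted p 0.329).

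**Figure D3:**
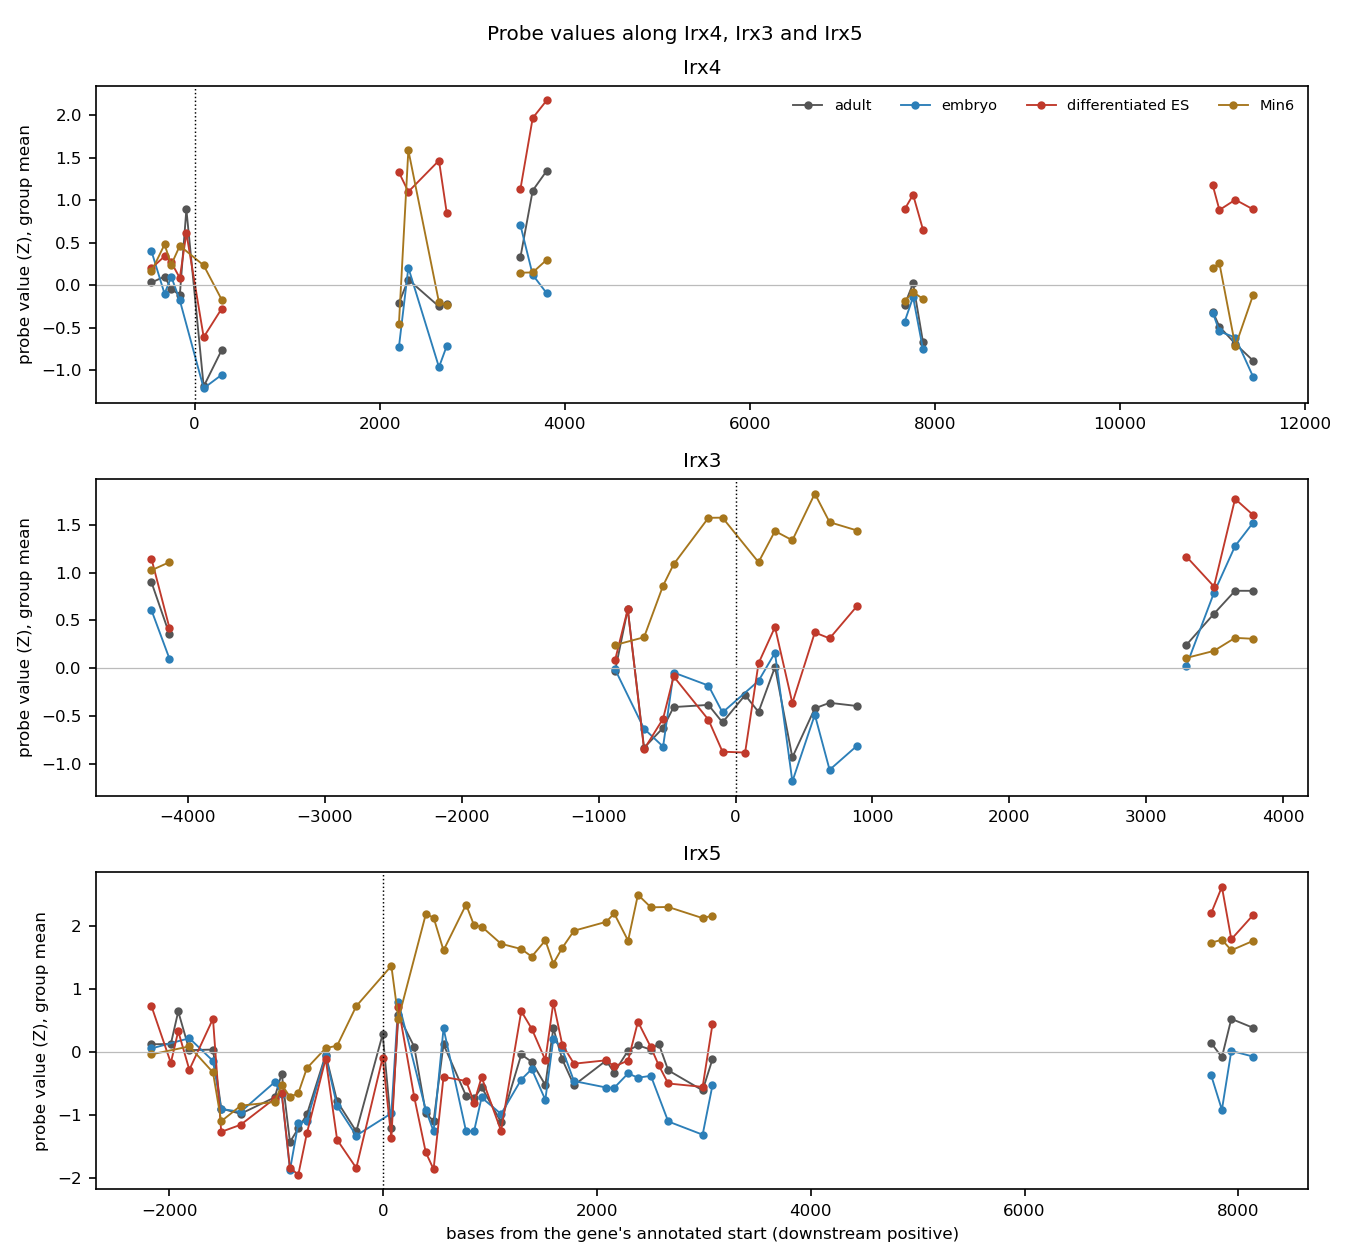
Probe values (Z, mean over the arrays of a group that read the probe) against the distance in bases from the annotated start of Irx4, Irx3 and Irx5, for adult tissue, embryos, differentiated ES cells and Min6. Differentiated ES cells stand above adult tissue and embryos at the islands 7674 and 11005 bases after the Irx4 start and 7746 bases after the Irx5 start, and Min6 is high over most of the Irx5 start island downstream of the gene start.

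Irx3 start split the cultures by the line they came from. TT2 scored 0.50, its embryoid bodies 0.90 and its retinoic acid culture 1.01, all above every adult array. EB5 scored -0.41, its endoderm arrays -0.87 and -0.70 and its mesoderm -0.68, and the last 3 lay below every adult array. J1 scored -0.15 and the teratomas -0.37 and -0.34. As the differentiated arrays lie on both sides of the adult range, their mean difference from adult tissue was 0.32 ± 0.20 (adjusted p 0.251). With the scan day as a block it was 0.69 (adjusted p 0.0275). On shared slides, embryoid bodies exceeded brain 2 by 1.36 and TT2 exceeded the embryo at 8.5 days by 1.07, while endoderm 2 minus pancreas 1 was -0.19. The difference between the lines was noticed in these values and was not tested. No kind of differentiation was done in both lines, so line and kind of culture cannot be told apart among the differentiated arrays.

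Inside Irx3 lies an island of 6 probes under the name D230002A01Rik, between the start island and the downstream one. It was scored apart, as its probes do not carry an Irx name. TT2 scored 1.72 there, embryoid bodies 2.30 and the retinoic acid culture 2.57. EB5 scored -0.36, the endoderm arrays -0.24 and -0.51, and mesoderm -0.07. The order of the lines was thus that of Irx3 start. Adult tissue averaged 0.35 and embryos -0.39, and the mean difference of differentiated ES cells from adult tissue was 0.46 (adjusted p 0.358) and from embryos 1.20 (adjusted p 0.0446).

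Irx3 downstream was above 0 on 15 of 16 adult arrays, from -0.25 in lung 2 to 1.41 in brain 2 with a median of 0.66, and on all embryo arrays, from 0.55 to 1.15. Differentiated scores were 1.76 in embryoid bodies, 2.24 after retinoic acid, 0.92 and 1.42 in endoderm and 0.40 in mesoderm. The TT2 cultures led here too and mesoderm lay below the adult median. The difference from adult tissue was 0.74 ± 0.23 (adjusted p 0.0173), higher in 4 of 5 arrays. It was 0.64 without embryoid bodies (adjusted p 0.0727) and 0.52 without the retinoic acid array (adjusted p 0.101), so either TT2 culture decided the call. It was not called with the slide as a block, at 0.73 (adjusted p 0.169).

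Irx6 start was the only start island called. Mesoderm scored 0.16, the endoderm arrays 0.01 and 0.03, embryoid bodies -0.35 and the retinoic acid culture -0.28. Here the EB5-derived cultures were the higher ones. The difference from adult tissue was 0.33 ± 0.10 (adjusted p 0.0138) and that from embryos 0.44 (adjusted p 0.00967), with all differentiated arrays above all embryos. Against adult tissue it was 0.31 without endoderm 2 (adjusted p 0.0501), 0.27 without mesoderm (adjusted p 0.0722) and 0.13 with the slide as a block (adjusted p 0.652), so each of these ended the call. The call against embryos ended with the slide or the scan day as a block.

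Irx2 upstream scored 0.60 and 0.69 in endoderm, 0.36 in mesoderm, -0.01 in embryoid bodies and -0.17 after retinoic acid. Adult arrays ranged from -0.57 to 0.40 with a median of -0.12. The EB5-derived cultures were again above the TT2-derived ones. The difference from adult tissue, 0.40 ± 0.15, was just past the threshold (adjusted p 0.0477). It was 0.33 without endoderm 1 (adjusted p 0.145), 0.31 without endoderm 2 (adjusted p 0.192) and 0.39 without mesoderm (adjusted p 0.104), and each ended the call. The call also ended without the embryo at 9.5, 11.5 or 12.5 days, which enter only through the shared spread.

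Irx1 showed no call. Its start island averaged -0.42 in differentiated ES cells against -0.32 in adult arrays, and the difference of -0.10 was within the spread between arrays. Its inside island averaged -0.42 and 0.06, a difference of -0.47 (adjusted p 0.159) with colon at the top of the adult range. Irx2 start differed by -0.03 (adjusted p 0.92) and Irx5 start by -0.07 (adjusted p 0.586). When only probes with input well above background on every array were kept, Irx5 start was called lower in differentiated ES cells, with a difference of -0.45 (adjusted p 0.00348).

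In all, 7 of 14 Irx islands were called between differentiated ES cells and adult tissue, against 23.2% of all islands, and all 7 were higher in differentiated cells. They were 4 of the 9 IrxA islands and 3 of the 5 IrxB islands. Among all called islands 1966 were higher and 1188 lower. When only probes with input well above background on every array were kept, 981 were higher and 1017 lower. The median difference was 0.37 over the Irx islands and -0.01 over all islands. All 7 have 3 or 4 probes, a size at which 29.3% of islands were called, and they were 7 of the 8 Irx islands of that size. None of the 6 Irx islands with at least 5 probes was called by limma, where 20.9% of all such islands were, and 1 of them, Irx4 start, had an unadjusted p under 0.05, by limma and by the methods' t-test alike. By the methods' t-test 9 Irx islands had an unadjusted p under 0.05, beside 33.1% of all islands, and 6 passed after adjustment, beside 21.1%, Irx2 upstream being the one lost. Irx2 upstream, Irx3 downstream and Irx6 start were also not called on log2 ratios that were centred without scaling, nor after normexp background correction.

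Against embryos, 6 of 14 Irx islands were called in differentiated ES cells, all of them higher, beside 21.1% of all islands. They were 4 of IrxA, all in Irx4 past its start, and 2 of IrxB, Irx5 downstream and Irx6 start. Each had all 5 differentiated arrays above all 5 embryo arrays, as did 8.67% of all islands. The median difference was 0.42 over the Irx islands and -0.04 over all islands. Among all called islands 1607 were higher and 1265 lower, and on centred log2 ratios 1191 were higher and 1439 lower. With the slide as a block, 1 of the 6 Irx islands remained called, Irx4 downstream, and with the scan day 2, Irx4 inside 3 and Irx4 downstream. As no slide held arrays of both groups, the slide block compares them only through the other groups. Calls over all islands fell too, to 74 higher and 20 lower with the slide and to 283 higher and 82 lower with the scan day. On centred log2 ratios Irx4 inside 2 was not called, and after normexp neither it nor Irx6 start was.

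Undifferentiated ES cells differed from adult tissue at 2 of 14 Irx islands, beside 2.3% of all islands. These were Irx4 inside 3, higher by 0.86 ± 0.16 (adjusted p 0.0071), and Irx4 downstream, higher by 0.84 ± 0.20 (adjusted p 0.0239), and both lie in IrxA. At each, EB5 and TT2 lay above all adult arrays and J1 did not. Without EB5, or without TT2, neither was called, and the count over all islands fell from 313 to 0. Without J1 that count rose to 1151 and both Irx4 islands were still called. Neither was called on centred log2 ratios, after normexp, with the scan day as a block or by the methods' t-test after adjustment, which passed 0 of all islands. Irx4 downstream was also not called with the slide as a block (adjusted p 0.518), with the array layout as a block (adjusted p 0.0648) or with only the compared groups in the fit (adjusted p 0.068).

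Between differentiated and undifferentiated ES cells limma called 0 of 14 Irx islands, beside 5.43% of all islands. At an unadjusted p under 0.05 there were 4 by limma, beside 20.9% of all islands, and 2 by the methods' t-test, beside 13.2%. After adjustment the latter gave 0, and 0 of all islands too. The largest of the 4 was Irx4 downstream, with a difference of 0.75 (adjusted p 0.0553). It was called without TT2 (adjusted p 0.00626), with slides as random blocks (adjusted p 0.0295) and when blocked by scan day (adjusted p 0.0039), which also called Irx4 inside 3 (adjusted p 0.0272). The undifferentiated mean rests on 3 lines that differ widely at this island, with TT2 at 0.95 and J1 at -0.65.

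Embryos differed from adult tissue at 0 of 14 Irx islands by limma, beside 8.64% of all islands. At an unadjusted p under 0.05 there were 3 by limma, beside 22.2% of all islands, and 2 by the methods' t-test, beside 24.7%. After adjustment the latter gave 0, beside 10.3%. Irx1 inside was lower in embryos by limma at an unadjusted p under 0.05, with a difference of -0.62 (adjusted p 0.106). Irx4 inside 2 and Irx5 start were the others, with differences of -0.68 (adjusted p 0.186) and -0.22 (adjusted p 0.115). Only 2 of the 14 Irx differences were above 0, and the median difference was -0.14 over the Irx islands and 0.04 over all islands.

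Teratomas, in a separate fit with the other groups, differed from adult tissue at 0 of 14 Irx islands, beside 0.191% of all islands. At an unadjusted p under 0.05, limma gave 0 Irx islands, beside 7.79% of all islands, and the methods' t-test 0, beside 8.64%, shares at which few of 14 islands would pass. At Irx4 inside 1, inside 3 and downstream, which were high in the differentiated cultures, both teratomas scored below 0, at -0.19 and -0.40 for Irx4 inside 1. At Irx4 inside 2 they scored 1.06 and 0.70, and at Irx3 downstream 0.78 and 0.25. Only 2 teratoma arrays were measured, and their spread was taken from all groups. By its scanner ratios J1, which the labels give as their source, was itself within or below the adult range at Irx4 inside 3, Irx4 downstream and Irx5 downstream.

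**Figure D4:**
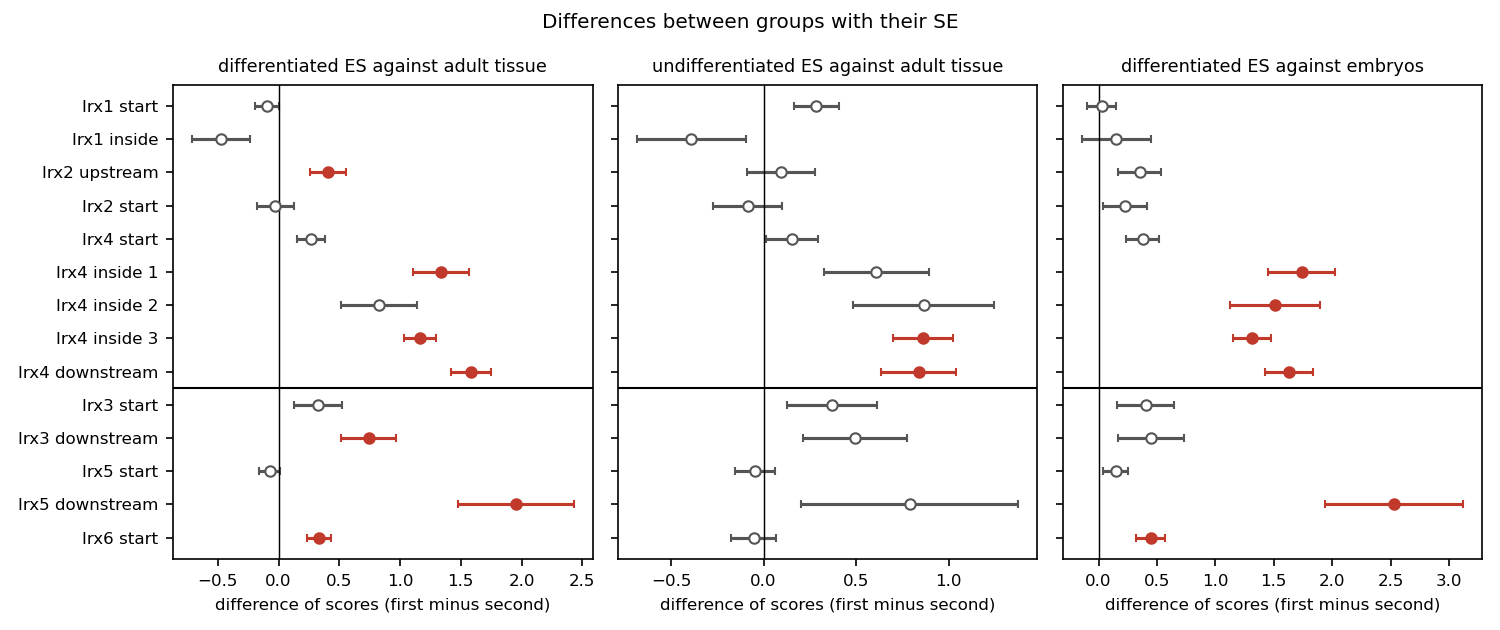
Difference of mean scores (points; bars are the limma SE) at each Irx island for differentiated ES cells against adult tissue, undifferentiated ES cells against adult tissue and differentiated ES cells against embryos, with called islands filled in red and the line between IrxA above and IrxB below. Red points number 7, 2 and 6 from left to right, and all lie to the right of 0.

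The IrxA and IrxB clusters were compared by their mean score on each array, as a description without a test. The clusters span 1312888 and 877280 bases. In adult tissue IrxA averaged -0.08 ± 0.28 (SD, n = 16) and IrxB -0.07 ± 0.30. In embryos they averaged -0.34 ± 0.07 (n = 5) and -0.21 ± 0.05, so both means were lower there than in adult tissue. The IrxB medians were close, at -0.18 in embryos and -0.17 in adult tissue, and every embryo array lay within the adult range of the IrxB mean. Undifferentiated ES cells had 0.28 ± 0.30 (n = 3) and 0.24 ± 0.51, and differentiated ES cells 0.47 ± 0.14 (n = 5) and 0.58 ± 0.40. Both means were thus higher in differentiated ES cells than in adult tissue. Among undifferentiated lines this held for EB5 and TT2, while J1 had IrxA at -0.01 and IrxB at -0.34. The SD was larger for the IrxB mean in both ES groups. As the means cover different islands, this does not say which cluster varies more. Teratomas had -0.07 ± 0.03 (n = 2) and -0.02 ± 0.05.

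IrxA minus IrxB was -0.01 in adult tissue, -0.13 in embryos, 0.03 in undifferentiated and -0.11 in differentiated ES cells and -0.05 in teratomas. The SD between arrays was 0.40 in adult tissue, 0.07 in embryos, 0.28 in undifferentiated and 0.35 in differentiated ES cells and 0.03 in teratomas. All 5 embryo arrays were below 0. The difference ran from -0.66 in brain 2 to 0.90 in colon 2 among adult arrays. Differentiated arrays ran from -0.52 after retinoic acid to 0.33 in endoderm 1, with both TT2 cultures and endoderm 2 below 0. The IrxA and IrxB means correlated over the 34 arrays with a Pearson r of 0.527, a description only, since arrays share slides and tissues. When only the start islands were counted, IrxA minus IrxB was 0.21 in adult tissue, 0.18 in embryos, 0.24 in undifferentiated ES cells, 0.06 in differentiated ES cells and 0.18 in teratomas. In every group but undifferentiated ES cells the sign over start islands was thus the opposite of that over all islands. As the clusters hold different probes, neither sign says which cluster is more methylated.

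**Figure D5:**
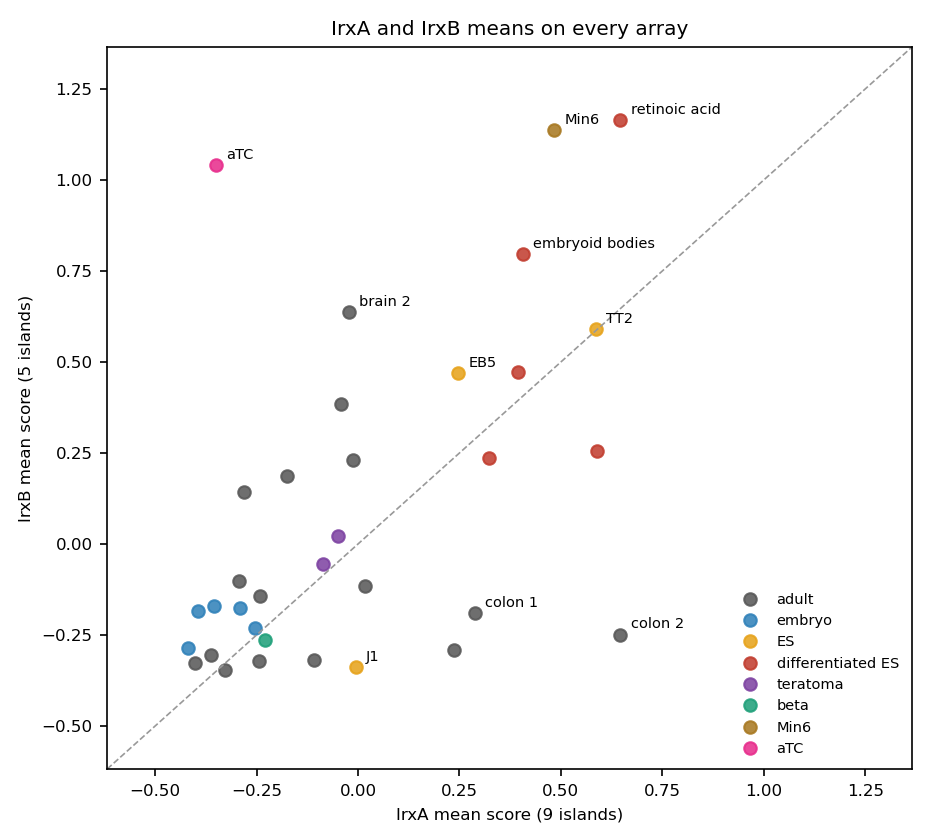
Mean score of the 9 IrxA islands (horizontal) against that of the 5 IrxB islands (vertical), 1 point per array, with the dashed line marking equal values. Embryo arrays sit in the low corner, colon arrays below the line, and aTC far above it with IrxA at -0.35 and IrxB at 1.04.

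Among the 8 adult tissues limma called 0 of 14 Irx islands, beside 0.0808% of all islands, with 2 arrays a tissue. At an unadjusted p under 0.05 it gave 5 Irx islands, beside 3.95% of all islands, and the methods' t-test was not run over 8 groups. Irx1 inside was high only in colon, at 1.08 and 1.72, while the other 14 arrays ran up to 0.26 in brain 2 (adjusted p 0.909). Irx2 start was also highest in colon, at 0.50 and 1.05 (adjusted p 1.00). At Irx4 inside 2 the pancreas stood highest, at 1.86 and 2.64, followed by colon at 1.62 and 1.56 (adjusted p 0.821). Colon was likewise at the top of Irx4 inside 1, at 0.53 and 0.96. The remaining Irx4 island of the 5, inside 3, was highest in colon 2 at 0.06 and lowest in muscle 2. None of these passed the threshold.

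IrxA minus IrxB was furthest from its adult mean in a pancreatic line. β cells from mice had IrxA at -0.23 and IrxB at -0.26, within the adult range. In Min6, the β-cell tumour line, IrxA was 0.48 and IrxB 1.14. In the α-cell line aTC, IrxA was -0.35 and IrxB 1.04, with a difference of -1.39, the lowest of any array. With 1 array each, these are values without a test.

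Min6 was high at start islands of both clusters. It scored 1.07 at Irx1 start, 1.30 at Irx1 inside and 1.27 at Irx2 start. In IrxB it scored 1.19 at Irx3 start, 1.08 at Irx5 start, 1.72 at Irx5 downstream and 1.45 at Irx6 start. The 5 Irx4 islands stayed between -0.14 and 0.23, so Min6 was not high at the Irx4 islands that were high in differentiated ES cells. Above 0.75 were 7 of 14 Irx islands, 3 of IrxA and 4 of IrxB, beside 19.5% of all islands on that array. On the β-cell array 2 of 14 were above 0.75, beside 12.7% of all, namely Irx4 inside 2 at 0.87 and Irx3 downstream at 0.79.

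aTC was above 0.75 only at IrxB islands. It scored 1.06 at Irx5 start, 1.42 at Irx5 downstream, 1.36 at Irx6 start and 0.84 at Irx3 downstream, with 0.54 at Irx3 start. Above 0.75 were these 4 of 14 Irx islands and 0 of IrxA, beside 23.1% of all islands. Irx1 start at -0.69, Irx1 inside at -1.02, Irx2 upstream at -0.76 and Irx2 start at -0.70 were each lower than on any other array. Irx4 start, at 0.63, was higher in aTC than on any other array. Irx1 and Irx2 are known to be expressed in α cells, but expression was not measured here and a link to these scores was not tested.

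Of the 41 probes of Irx5 start, 3 are given here that were chosen after their values were seen, at -869, -249 and 401 bases. Min6 scored -0.71, 0.73 and 2.19 at them and aTC 0.33, 1.29 and 2.27. Adult tissue averaged -1.42, -1.25 and -0.96, and differentiated ES cells -1.83, -1.83 and -1.59. Past the gene start, Min6 exceeded the adult mean at every probe it read except that at 145 bases, and aTC at all but those at 145 and 1294 bases.

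Islands near the clusters were counted too, beside the 23.2% of all islands called between differentiated ES cells and adult tissue. Within 500000 bases of the IrxA span lie 7 other islands, of which 1, without a gene name and 460814 bases away, was called higher in differentiated ES cells than in adult tissue, by 0.42 (adjusted p 0.0458). Islands of Ndufs6, Mrpl36, Aytl2, Clptm1l, Tert and Slc12a7 were not called. Near IrxB lie 6, of which 2 were called, Mmp2 by 0.51 (adjusted p 0.015) and Slc6a2 by 0.38 (adjusted p 0.0158), both past Irx6. Fto, on the other side of Irx3, differed by -0.07 (adjusted p 0.713). Of the 4 IrxA islands called against adult tissue, 3 lie within Irx4 or just past it. Against embryos, 1 of the 7 near IrxA and 4 of the 6 near IrxB were called, beside 21.1% of all islands, each higher in differentiated ES cells. The 4 were D230002A01Rik and an unnamed island, both inside the cluster span, and Mmp2 and Slc6a2.

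Other TALE-class homeobox genes serve as relatives of the family. Of 12 listed genes of the Meis, Pbx, Pknox, Tgif and Mkx families, 9 had 13 scored islands. Between differentiated ES cells and adult tissue 1 of the 13 was called, beside 23.2% of all islands, and the median difference was -0.08, against 0.37 over the Irx islands and -0.01 over all. The called island belongs to Meis1 and was higher by 0.70 (adjusted p 0.00102). The largest absolute difference was at Meis2, at -0.77 (adjusted p 0.11), and another Meis2 island differed by 0.43 (adjusted p 0.208). In the files Meis2 appears under its older name Mrg1.

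Of the 13601 other islands, those with a gene name were ranked, 1 per gene, by how their scores over the 34 arrays resembled the cluster means. For the IrxA mean the first belonged to Hmx1, with a Pearson r of 0.878. It was followed by P140, now Srcin1, at 0.786, Duoxa2 at 0.757, 4932409I22Rik, now C2cd4c, at 0.757, and Gata4 at 0.744. For the IrxB mean the order was Msx1 at 0.843, Syngr3 at 0.833, Cbln1 at 0.830, Sox7 at 0.804 and Nkx6-2 at 0.803. Hmx1, Msx1 and Nkx6-2 encode homeodomain proteins too, which was noticed after the list was seen. Whether such genes are more common in this list than among all islands was not tested. These r values describe arrays that share groups and slides, and the IrxA and IrxB means are themselves correlated.

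The called Irx islands hold few probes, and 16 scan days and 23 slides divide the groups, so that slide and group can be told apart only where they cross. With the slide as a block, 2 of the 7 islands called against adult tissue remained called, and with the scan day 3 of the 7 remained, with Irx3 start as a new call. Over all 13615 islands, 2057 were called with the slide and 2248 with the scan day, against 3154 without a block.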

How the data were processed

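The members, lists and tests were chosen with earlier results of these data known. The authors' scanner files give the log10 ratio of bound over input per probe, after background subtraction and linear dye normalization, and the deposited intensity of each spot and its local background in both channels. The authors' deposited table gives 1 score per probe, a Z-score by the methods. It runs the same way as the scanner ratios, with a Pearson r of 0.894 to 0.991 by array except for J1 at 0.113, and its scale and centring were not settled here (column medians -0.315 to -0.0134). Here, outlier and control spots were left out, log ratios were made Z-scores within each array, and an island's score is the mean of at least 3 probes. Of 97651 probes on the larger layout (14 arrays) and 88737 on the smaller (20 arrays), 492 had no position. Arrays read 125 to 141 of the Irx probes, and their input signals had medians of 3.07 to 7.34 over background. The number of arrays limits the precision.

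Groups were compared with limma 3.58.1 (lmFit, eBayes) in R 4.3.3 with Benjamini-Hochberg adjustment over all islands, called at an adjusted p under 0.05. The fit was tested on simulated data. The methods' t-test was run beside it and counted both before and after adjustment, since the methods name no threshold. The p-values measure only the spread between these arrays, and the labels do not say that arrays are of separate animals. The differentiated ES arrays come only from the lines TT2 and EB5 and were taken as independent, so their p-values do not measure the spread between lines. Named islands are all Irx islands, the 5 genes most like each cluster mean by Pearson r, the 3 largest differences of a list of TALE genes, and all islands within 500000 bases of a cluster. The D230002A01Rik values by array were chosen after they were seen. Promoter sequences and current symbols are from RefSeq (GRCm38.p6). Alternatives covered scale, background correction, source of the ratios, dim probes, island summary and size, gap, slide, scan day, array layout, test and arrays in the fit. Normexp on median signals, array layout, the random slide block, the joined Irx3 island and start islands alone were added after the data were seen. Python 3.11.15, numpy 2.4.6, pandas 2.3.3 and matplotlib 3.10.9 were used.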

Additional observations from a re-analysis of the deposited data

Results flagged for a closer look

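Far samples were sought in 32 combinations of island or cluster mean and group of 4 to 10 arrays, and 2 were found, where chance gives about 1 in 20. At Irx4 start the embryo at 8.5 days scored 0.17, above the other embryos at -0.54 to -0.40. At Irx4 downstream the embryo at 9.5 days scored -0.95, below the others at -0.64 to -0.53.

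At 4 of 14 Irx islands, beside 10.2% of all islands, every culture made from TT2 moved one way from TT2 and every culture made from EB5 moved the other way from EB5. At Irx3 start the TT2 cultures lay above TT2 by 0.45 on average and the EB5 cultures were at -0.34 relative to EB5. At Irx5 downstream the means were 0.85 and -0.32. At Irx2 upstream they were -0.30 and 0.38, and at Irx4 start -0.22 and 0.29. The difference between the lines was not tested, and each line has 1 undifferentiated array, whose own error shifts all cultures of that line together. Line and kind of culture cannot be told apart, since no differentiation was done in both lines.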

How the results depend on the processing

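No difference of an Irx island between differentiated ES cells and adult tissue that was called, as reported or in the alternative, changed sign, while IrxA minus IrxB did so in each group under some alternatives. Where 7 Irx islands were called between differentiated ES cells and adult tissue, the count was 4 with the median-centred log2 ratio, 0 with the deposited table, 2 with dim probes left out (1 of the 7, and Irx5 start, called lower), 0 with at least 5 probes, 2 with the slide as a block and 4 with the scan day (3 of the 7, and Irx3 start). The table scored 5 Irx islands, the filter on dim probes 7 and the minimum of 5 probes 6. None of the 7 called islands was scored with the table or the minimum of 5 probes, and the filter on dim probes scored only Irx4 inside 3 of them. The same was true of the islands called against embryos and for undifferentiated ES cells against adult tissue. Against embryos, where 6 were called, the counts were 0 with the table, 1 with dim probes left out, 0 with at least 5 probes, 1 with the slide and 2 with the scan day. For undifferentiated ES cells against adult tissue, where 2 were called, they were 0 with the log2 ratio, normexp, the table, at least 5 probes, the scan day and the methods' t-test, and 1 with dim probes left out, the slide, the array layout and only the compared groups. Differentiated against undifferentiated ES cells gave 2 with the scan day and 1 with slides as random blocks, beside 642 and 855 of all 13615 islands. Embryos, teratomas and the 8 tissues gave 0 Irx calls in every alternative. The replicate block, which takes arrays with the same number in each tissue as 1 block, gave 0 Irx islands and 8 of all islands. Deviations of 28 pairs of same-numbered tissue arrays correlated at -0.253 to 0.629, 14 of them over 0.1. Arrays of the same number differ in sex. Number 1 is male in colon and female in brain, and number 2 is male in colon and female in lung. A number thus cannot mark 1 animal over all tissues.

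Leaving out 1 array gave 5 to 7, 6 to 7, 0 to 2 and 0 to 1 Irx calls in the 4 comparisons in the order above. For IrxA minus IrxB it gave -0.161 to -0.114 in embryos, -0.114 to 0.164 in undifferentiated ES cells, -0.225 to -0.0118 in differentiated ES cells and -0.0690 to -0.0305 in teratomas.

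IrxA minus IrxB in embryos, -0.133 as reported, was -0.208 with the log2 ratio, 0.112 with the table, 0.146 with dim probes left out, 0.134 with at least 5 probes and 0.183 with start islands alone. With dim probes left out it was 0.339 in undifferentiated and 0.445 in differentiated ES cells, reported at 0.0347 and -0.113. In teratomas, -0.0497 as reported, it was -0.127 with normexp, 0.460 with the table, 0.444 with dim probes left out, 0.00955 with probe medians, 0.294 with at least 5 probes, -0.105 with gaps up to 1000 bases, -0.0799 with the joined Irx3 island, 0.0748 with each gene counted once and 0.175 with start islands alone. Apart from the settings that score fewer islands, the cause was not tested.

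Over all islands, the 3154 calls of differentiated ES cells against adult tissue of 13615 islands were 1725 with normexp, 1318 of 5915 scored with the table, 1872 of 8933 with at least 5 probes and 2057 with the slide. The 313 of undifferentiated ES cells against adult tissue ran from 0 with the log2 ratio or the scan day to 1564 with the table, which includes the J1 values questioned below, and were 0 without EB5 or TT2 and 1151 without J1. The 1176 of embryos ran from 0 with the scan day, and 3 with the slide, to 1462 with only the compared groups, and were 689 without the embryo at 9.5 days. The 739 of differentiated against undifferentiated ES cells ran from 0 with the methods' t-test to 1365 without the retinoic acid array. The 2872 of differentiated ES cells against embryos fell to 94 with the slide and 365 with the scan day, the 26 of teratomas ran from 6 without the second teratoma array to 43 with only the compared groups, and the 11 among tissues from 1 with normexp to 322 with the array layout.

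Not run were normexp on mean signals, which 16 files lack, and the slide and the scan day as blocks for the teratomas and the 8 tissues, where they cannot be estimated. In the deposited table, the J1 values correlate with the J1 scanner file at r = 0.113. Which of the pair holds J1 was not settled, so the J1 scores from the scanner file are in question too. Input signals of 3.07 to 7.34 times background limit the dim probes.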

Other observations

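The pair of Irx3 probes too small to be scored, at -4265 and -4134 bases from the start, averaged 1.54 in brain 2, 1.69 in kidney 2, 1.10 in lung 1, 2.01 in muscle 2 and 1.72 in spleen 1. The other 11 adult arrays ran from -0.51 to 0.60. These are the same 5 adult arrays that were highest at Irx5 downstream, at 2.86, 1.65, 0.62, 1.16 and 2.06 in that order. They are 3 arrays of male and 2 of female DNA, from 5 tissues, and what sets them apart was not tested.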
